A study of Mus musculus with 2 samples.

Results

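Foxp3 and 9 other genes that mark regulatory T cells in mice were followed in CD4 T cells cultured under Th9+IFNgamma or Th9 conditions. The 10 genes were Foxp3, Ikzf2, Ikzf4, Entpd1, Nt5e, Gpr83, Izumo1r, Nrp1, Capg and Swap70, out of 18430 genes with a named probe. A probe was taken for a gene when the RefSeq accession deposited with it belonged to that gene, whatever the older symbol (Zfpn1a2 for Ikzf2, Folr4 for Izumo1r). All 10 genes were found, with 19 probes in all. The genes were chosen by name and not by their signals, but with earlier results of these arrays known.

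The cells came from spleens of C57BL/6 mice, an inbred laboratory strain, and were purified by magnetic sorting to above 98%. Antibodies to the T cell receptor and to CD28 stimulated both cultures for 2 days, and harvest followed 3 days later. The Th9+IFNgamma culture received TGF-beta at 3 ng/ml, IFN-gamma at 10 ng/ml and IL-4 at 3 ng/ml. The Th9 culture received an anti-IFNgamma antibody at 1 µg/ml, the same 3 ng/ml of TGF-beta and 10 ng/ml of IL-4, so that IFN-gamma, its antibody and the IL-4 dose all differed and cannot be told apart. The cells are described as wild type, and the labels give neither the number or age of the mice nor any removal of regulatory T cells before culture. Each condition was read on 1 single-colour array, so that no value has a replicate and no test was possible.

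Regulatory T cells restrain immune responses, and the transcription factor Foxp3 defines them. Some arise in the thymus, and others form when mature CD4 T cells are activated in the presence of TGF-beta, a cytokine that both cultures contained; IL-4 is known to oppose that induction. In bulk RNA, fewer cells that express a gene and less RNA per cell cannot be told apart.

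Values are scaled signals, which are linear scanner signals after both arrays were brought to the same 75th percentile. They compare 1 probe between the arrays and never 2 probes with each other. A difference is the log2 signal of Th9+IFNgamma minus that of Th9, and a difference of 1 is 2-fold. Where a gene had several probes, the brightest one well above background on both arrays stands for it. An error written with ± is the one the scanner software attached to the signals, carried over to the log2 difference. It is a model of reading error, mostly a fixed share of the signal, and leaves out how far mice, cultures or labelling reactions vary.

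In Th9+IFNgamma, the signals of Foxp3, Ikzf2 and Entpd1 were higher by 2-fold or more, that of Nt5e was lower by 2-fold or more, and the other 6 genes lay within 2-fold. The same limits were passed by 5.15% (higher) and 7.42% (lower) of the 12269 genes measured on both arrays. All 10 genes were measured on both arrays, and 6 of them had a positive difference and 4 a negative one. Their median difference was 0.15, against -0.01 over all measured genes. In each of the 6 genes with several measured probes, the probes had the same sign.

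**Figure D1:**
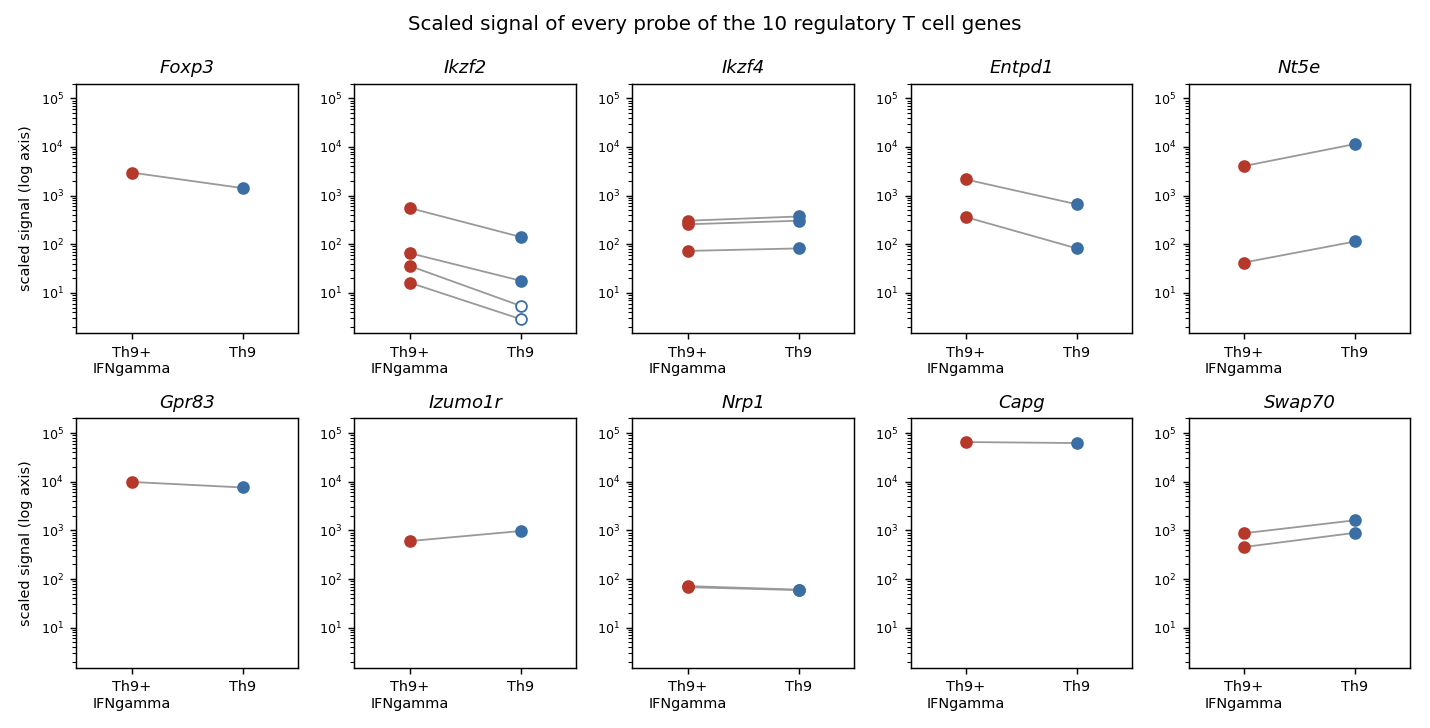
Scaled signal (log axis) of every probe of the 10 genes on the Th9+IFNgamma array (left, red) and the Th9 array (right, blue), 1 array each and 1 line per probe; open circles are signals not well above background. The lines of Foxp3, Ikzf2 and Entpd1 run down towards Th9, those of Nt5e run up, and Capg, at 65279 and 62269, is nearly level.

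Foxp3 was read by 1 probe, at 2972 in Th9+IFNgamma and 1424 in Th9. It was therefore clearly detected in both cultures and 2.09-fold higher in Th9+IFNgamma. The log2 difference was 1.06 ± 0.20, so that the software's error spans the 2-fold limit. Of all measured genes, 571 (4.65%) were at least as far apart in this direction.

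The RefSeq promoter table (GRCm38.p6) holds windows for 8 of the 10 genes, all but Ikzf2 and Ikzf4, and 10 windows in all. Results are given for 2 short motifs, looked for over the 250 bases before the start on both strands. The STAT6 motif has 4 bases of any kind between TTC and GAA, and TGTTTAC is a forkhead motif. They occur in 5.85% and 3.17% of 32851 windows of the same length, and the STAT6 motif was in none of these 10. A match describes the letters of the sequence, and nothing on these arrays measures whether a factor binds there.

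Relatives of Foxp3 behaved differently from one another. Foxp1, a forkhead factor of naive T cells, was read at 7234 in Th9+IFNgamma and 4167 in Th9 (0.80 ± 0.20), with 0.94 by its other probe. Foxp4 was dim and nearly level at 41.5 and 40.4 (0.04), with -0.11 by its other probe. Foxp2 cleared background on neither array. Foxp3 (1.06 ± 0.20) was thus the 1 measured member of its family past 2-fold. It passed the limit by less than the software's error, and Foxp1 lay close below.

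Ikzf2 encodes Helios, a zinc finger factor of the Ikaros family that is common in regulatory T cells of thymic origin and is also induced in activated T cells. By the brightest probe of each gene it had the largest difference among the 10 genes, though the other Entpd1 probe gave more (2.14). The brightest Ikzf2 probe gave 555 in Th9+IFNgamma and 141 in Th9, which is 3.93-fold higher in Th9+IFNgamma (1.97 ± 0.21). A second probe gave 65.7 and 17.8, with nearly the same difference (1.89 ± 0.29). Both remaining probes cleared background in Th9+IFNgamma and not in Th9. Their bounds were at least 2.86-fold (35.8 against 5.40) and at least 1.29-fold (16.2 against 2.89), taken over the lowest signal that counted as well above background on the Th9 array, 12.5. A probe that clears background on the Th9+IFNgamma array alone can only give a bound in this direction, so the measured difference rests on the first 2 probes. Of all measured genes, 163 (1.33%) were at least as far apart in this direction. With normexp, another way of correcting background, the difference was 1.52, and that of Entpd1 was also 1.52.

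Ikzf4 encodes Eos, a relative of Helios that works with Foxp3 to silence genes in regulatory T cells. It did not share the difference of Ikzf2. Its 3 probes gave 305 in Th9+IFNgamma against 373 in Th9, 257 against 305, and 73.0 against 82.2. The log2 differences were -0.29 ± 0.20, -0.25 ± 0.20 and -0.17 ± 0.22, so that only the last was within the software's error. Of the remaining Ikaros family genes, Ikzf1 (Ikaros) at 0.17 and Ikzf5 at -0.18 were within their software error of 0.20. Ikzf3 (Aiolos) was 1.41-fold lower in Th9+IFNgamma, at 189 against 265 (-0.49 ± 0.21). Ikzf2 was the only one of the 5 family genes at least 2-fold apart.

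**Figure D2:**
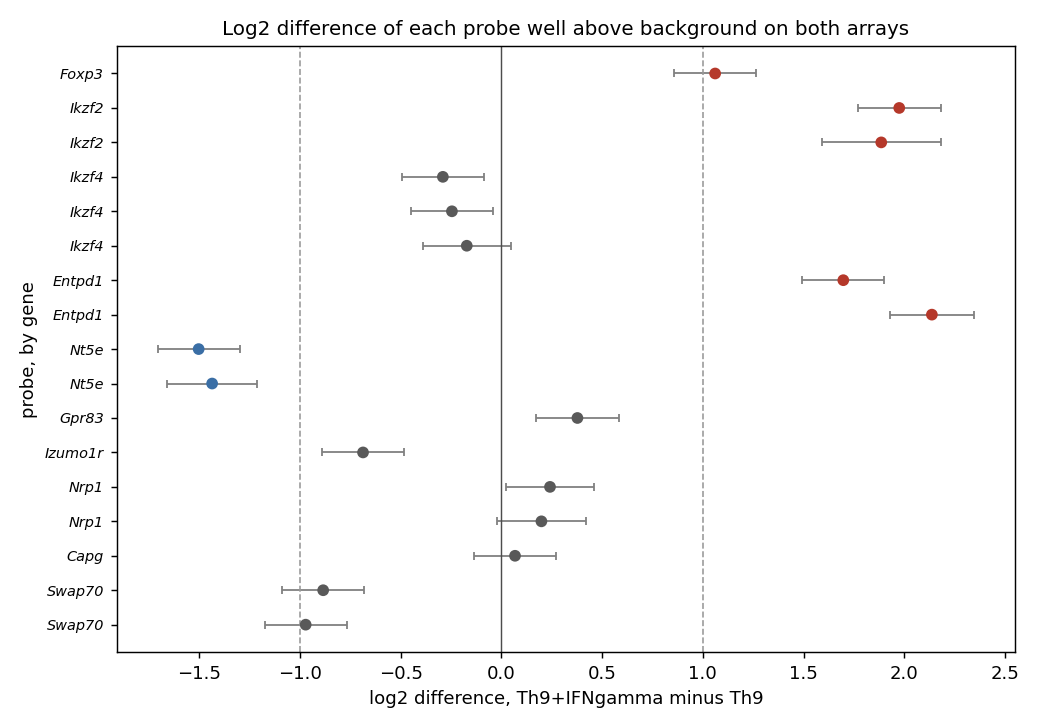
Log2 difference (Th9+IFNgamma minus Th9) of the 17 probes well above background on both arrays, with the software's error as bars and dashed lines at 2-fold. Probes of 1 gene share a sign, and those of Entpd1 lie furthest from each other (1.70 and 2.14). Ikzf2 and Entpd1 are to the right of the upper line, Foxp3 just past it, and both Nt5e probes to the left of the lower line.

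Entpd1 and Nt5e encode enzymes that work in sequence on the cell surface. Entpd1 (CD39) strips phosphates from extracellular ATP and ADP to leave AMP, and Nt5e (CD73) turns AMP into adenosine, which dampens T cell responses. Mouse regulatory T cells are known to carry both. On these arrays they differed in opposite directions.

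Entpd1 was read at 2146 in Th9+IFNgamma and 662 in Th9 by its brighter probe, which is 3.24-fold higher (1.70 ± 0.20). Its other probe, at 361 and 82.2, gave a larger difference (2.14 ± 0.21, 4.40-fold). Only 223 genes (1.82%) were at least as far apart in this direction. Entpd1 has 2 annotated starts, and the window before each is shown, in full lower case because neither motif was found in either window.
Entpd1, first start, GRCm38.p6 chr19:40612116-40612365, plus strand: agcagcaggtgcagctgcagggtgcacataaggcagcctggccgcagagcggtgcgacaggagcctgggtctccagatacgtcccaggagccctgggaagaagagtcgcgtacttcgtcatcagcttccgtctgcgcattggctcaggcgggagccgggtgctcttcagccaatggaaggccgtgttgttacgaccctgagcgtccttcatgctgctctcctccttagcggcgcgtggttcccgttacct
Entpd1, second start, GRCm38.p6 chr19:40659520-40659769, plus strand: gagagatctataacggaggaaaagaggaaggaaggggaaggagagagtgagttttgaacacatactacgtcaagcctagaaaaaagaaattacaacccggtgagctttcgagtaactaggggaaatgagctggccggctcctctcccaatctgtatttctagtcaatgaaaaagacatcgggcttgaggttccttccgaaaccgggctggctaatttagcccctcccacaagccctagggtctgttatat
The windows differ in base composition. The one at the first start has 62.4% G and C with 18 CG dinucleotides, and the one at the second has 47.2% with 8, where the medians over all windows are 52.4% and 6.

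Nt5e was bright on both arrays, at 4051 in Th9+IFNgamma and 11471 in Th9, which is 2.83-fold lower in Th9+IFNgamma (-1.50 ± 0.20). Its other probe, a dimmer one at 42.2 and 114, agreed in size (-1.43 ± 0.22). In this direction 469 genes (3.82%) were at least as far apart. The gene thus remained far above background in Th9+IFNgamma while standing lower than in Th9. Its window, shown as the counterpart of those of Entpd1, held neither motif and is rich in G and C (72%, with 21 CG dinucleotides).
Nt5e, GRCm38.p6 chr9:88327359-88327608, plus strand: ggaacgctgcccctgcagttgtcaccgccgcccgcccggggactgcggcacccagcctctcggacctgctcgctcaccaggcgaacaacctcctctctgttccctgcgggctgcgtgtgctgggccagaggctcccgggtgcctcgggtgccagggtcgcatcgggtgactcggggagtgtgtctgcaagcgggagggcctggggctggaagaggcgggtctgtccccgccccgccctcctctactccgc

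Set against each other, the Entpd1 difference exceeded that of Nt5e by 3.20 ± 0.29 on the log2 scale. The Th9+IFNgamma to Th9 ratio of Entpd1 was therefore 9.18 times that of Nt5e. Over the 4 pairs of an Entpd1 probe and an Nt5e probe, this gap ran between 3.13 and 3.64. Over 9 alternative ways of processing the arrays, it ran between 2.84 and 3.39, lowest with normexp. Median scaling, detected-probe scaling and the deposited table change only a constant per array, which cancels in this gap. The 2 other filters kept the same probes. These settings therefore left the gap at 3.20 and give no check on it. No setting brought either gene within 2-fold.

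**Figure D3:**
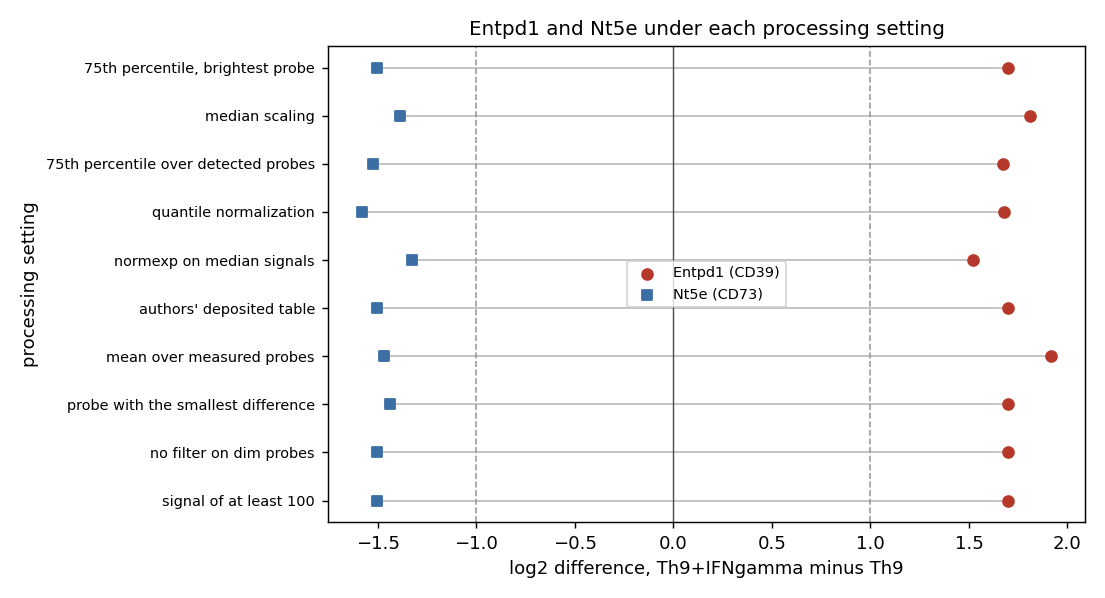
Log2 difference (Th9+IFNgamma minus Th9) of Entpd1 (circles) and Nt5e (squares) under each of 10 processing settings, 1 per row, with dashed lines at 2-fold. Entpd1 lies to the right of the upper line and Nt5e to the left of the lower line in every row.

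Around this pair stand other genes that make, carry, sense or remove extracellular nucleotides and adenosine. Of 26 such genes measured besides Entpd1 and Nt5e, 5 were higher in Th9+IFNgamma by 2-fold or more, 5 were lower by as much and 16 lay within 2-fold. Over all measured genes the shares were 5.15% higher and 7.42% lower. The median of the list with Entpd1 and Nt5e was -0.09, and it was 0.03 with median scaling and 0.06 with signals of at least 100, so that the list had no settled direction. Downstream of Nt5e, the enzymes that act on adenosine and inosine did not move together. Ada, which deaminates adenosine to inosine, was at 5806 in Th9+IFNgamma and 2603 in Th9 (2.23-fold higher). Pnp, which splits inosine, was at 7938 in Th9+IFNgamma and 3252 in Th9 (2.44-fold higher), although mice carry a near-identical second copy, Pnp2, whose RNA its probe may also take up. Adk, which phosphorylates adenosine back to AMP, was at 1725 in Th9+IFNgamma and 3188 in Th9, within 2-fold (-0.89).

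The adenosine receptors were divided. Adora2a, the main adenosine receptor of T cells, was within 2-fold at 536 in Th9+IFNgamma and 686 in Th9 (-0.36). Adora2b was 2.80-fold lower in Th9+IFNgamma (252 against 705), and Adora3 was 3.57-fold higher (335 against 93.8). Among relatives of Entpd1, which handle nucleotides at the surface or inside the cell, Entpd7 (1.24) and Entpd5 (1.10) were higher and Entpd2 (-2.01) and Entpd4 (-1.44) lower. Entpd3, which cleared background in Th9 and not in Th9+IFNgamma, was lower in Th9+IFNgamma by at least 4.37-fold (2.44 against 48.5). Enpp2, which encodes autotaxin, had the same status and the larger bound, at least 81.0-fold lower (9.88 against 899). Enpp1, which cleaves ATP to AMP by a separate route, was 3.62-fold lower (1113 against 4027), and Cd38, which degrades NAD, was 2.11-fold lower (137 against 288). With normexp the differences of Entpd7 (0.66), Entpd5 (0.96) and Cd38 (-0.82) lay within 2-fold, and that of Entpd2 was -1.11. Cd38 also lay within 2-fold by its other probe (-0.96) and with median scaling (-0.96).

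Gpr83, Izumo1r and Nrp1 encode surface proteins used to mark regulatory T cells in mice. None of them was 2-fold apart. Gpr83, a G protein-coupled receptor, was read by 1 probe at 9881 in Th9+IFNgamma and 7605 in Th9 (0.38 ± 0.20). In this direction 20.7% of the measured genes were at least as far apart.

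Izumo1r encodes folate receptor 4, known in the egg as the receptor for the sperm protein Izumo1. Its 1 probe gave 603 in Th9+IFNgamma and 970 in Th9, 1.61-fold lower in Th9+IFNgamma (-0.69 ± 0.20). Gpr83 and Izumo1r are next to each other among the protein-coding genes of chromosome 9 in the RefSeq table, yet their differences had opposite signs. Folr1, of the same receptor family, was dim at 53.6 and 78.3 (-0.55), and Folr2 cleared background on neither array.

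Nrp1 encodes neuropilin 1, a co-receptor for semaphorins and VEGF that is high on mouse regulatory T cells of thymic origin. Its 2 probes gave 71.5 in Th9+IFNgamma against 60.5 in Th9, and 68.0 against 59.2. The differences of 0.24 and 0.20 were about as large as the software's error of 0.22, and with normexp the difference was 0.01. Its paralog Nrp2 was 20.9-fold lower in Th9+IFNgamma, at 138 against 2879 (-4.38, and -3.81 with normexp). Of the 2 neuropilin genes, Nrp2, read by 1 probe, thus had the larger difference. Nrp1 was dim on both arrays, where a small difference is read less well.

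Capg and Swap70 act on the actin cytoskeleton and appear in published sets of genes high in regulatory T cells. Capg, which caps actin filaments, was read by 1 bright probe at 65279 in Th9+IFNgamma and 62269 in Th9. The difference of 0.07 ± 0.20 was the smallest of the 10 genes. Among 8 other measured genes of the gelsolin family and of actin capping, Scin (scinderin) was 2.53-fold lower (224 against 569) and 7 lay within 2-fold. Over all measured genes 7.42% were lower by 2-fold or more.

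Swap70, which binds filamentous actin and activates Rac, was lower in Th9+IFNgamma by both of its probes. They gave 873 in Th9+IFNgamma against 1610 in Th9 and 454 against 890. The differences of -0.88 ± 0.20 and -0.97 ± 0.20 stopped short of 2-fold, and 8.88% of the measured genes were at least as far apart in this direction. Its close relative Def6, known to restrain the factor Irf4 in mouse T cells, was at 29614 in Th9+IFNgamma and 20765 in Th9 (0.51). Irf4 itself was at 3912 and 6736 (-0.78). The Swap70 window held the forkhead motif TGTTTAC, beginning 107 bases before the start, and is shown as the only window of the 10 with it.
Swap70, GRCm38.p6 chr7:110221453-110221702, plus strand: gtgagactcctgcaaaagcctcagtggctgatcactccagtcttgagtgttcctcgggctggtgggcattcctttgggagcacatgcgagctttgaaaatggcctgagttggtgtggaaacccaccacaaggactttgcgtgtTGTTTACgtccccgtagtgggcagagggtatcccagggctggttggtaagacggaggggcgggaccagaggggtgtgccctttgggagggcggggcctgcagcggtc

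Genes outside the 10 that belong to the same programme were described from lists, beside the 5.15% (higher) and 7.42% (lower) of all genes past 2-fold. Of 22 measured surface and effector genes of regulatory T cells, 10 were lower in Th9+IFNgamma by 2-fold or more, 1 was higher by as much and 11 lay within 2-fold, with a median of -0.76 against -0.01 over all genes. That median was -0.51 without the filter on dim probes and -0.53 with normexp or with signals of at least 100. The higher gene was Fgl2, a secreted fibrinogen-like suppressor molecule that IFN-gamma also induces in other cells, at 1321 in Th9+IFNgamma and 314 in Th9 (4.21-fold higher). The largest lower differences were those of Ecm1 (-4.22), the cytokine gene Il10 (-3.57), Cd83 (-3.52) and Penk, which encodes the opioid precursor proenkephalin (-2.47). Several of these genes, Il10 and Ecm1 among them, are also made by Th2 or Th9 cells.

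The other 6 genes at least 2-fold lower were Plagl1, Icos, Ccr4, Lag3, Tnfrsf9 and Ccr8, named after their values were seen. Ccr8 was at -0.92 and Plagl1 at -1.44 with normexp, against -1.07 and -2.14. Of the 11 genes within 2-fold, 3 well-known ones were also named after their values were seen. Il2ra, the IL-2 receptor alpha chain, was at 2817 in Th9+IFNgamma and 2774 in Th9 by its brighter probe (0.02), while its other probe gave -0.36. Tnfrsf18, which encodes GITR, was at 105629 in Th9+IFNgamma and 109566 in Th9 (-0.05). The inhibitory receptor gene Ctla4 was at 674 and 976, 1.45-fold lower in Th9+IFNgamma (-0.53 ± 0.20).

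Of 29 measured partners and regulators of Foxp3, 4 were lower in Th9+IFNgamma by 2-fold or more, none was higher by as much and 25 lay within 2-fold. The median of -0.04 turned positive (0.08) with median scaling. The 4 were Nr4a2, a nuclear receptor that can activate Foxp3 (83.5 against 581), Satb1, a chromatin organiser (3239 against 19184), Smad3, which carries TGF-beta signals to the Foxp3 enhancer (168 against 467), and Hif1a (2553 against 5742). Runx1 (-0.04) and Cbfb (0.01), which form a complex that binds Foxp3, were level by their brightest probes. The other Cbfb probe gave 0.26. Nfatc1 was within 2-fold by its brightest probe (0.67) and past it by its other probe (1.24). Without the filter on dim probes, 2 genes of this list were higher in Th9+IFNgamma by 2-fold or more.

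Satb1 is also one of the genes that Foxp3 is known to repress. Of 11 measured genes that are lower in regulatory than in conventional CD4 T cells, 4 were lower in Th9+IFNgamma by 2-fold or more, namely Satb1 (-2.57), Id2 (-1.47), Tgfbr3 (-1.22) and Il7r (-1.17). Dapl1 was at least 2-fold higher (815 against 267), and 6 lay within 2-fold. The median of -0.48 was -0.18 with signals of at least 100. With normexp Tgfbr3 was at -0.53. Il2, the best known target of repression, cleared background on neither array.

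**Figure D4:**
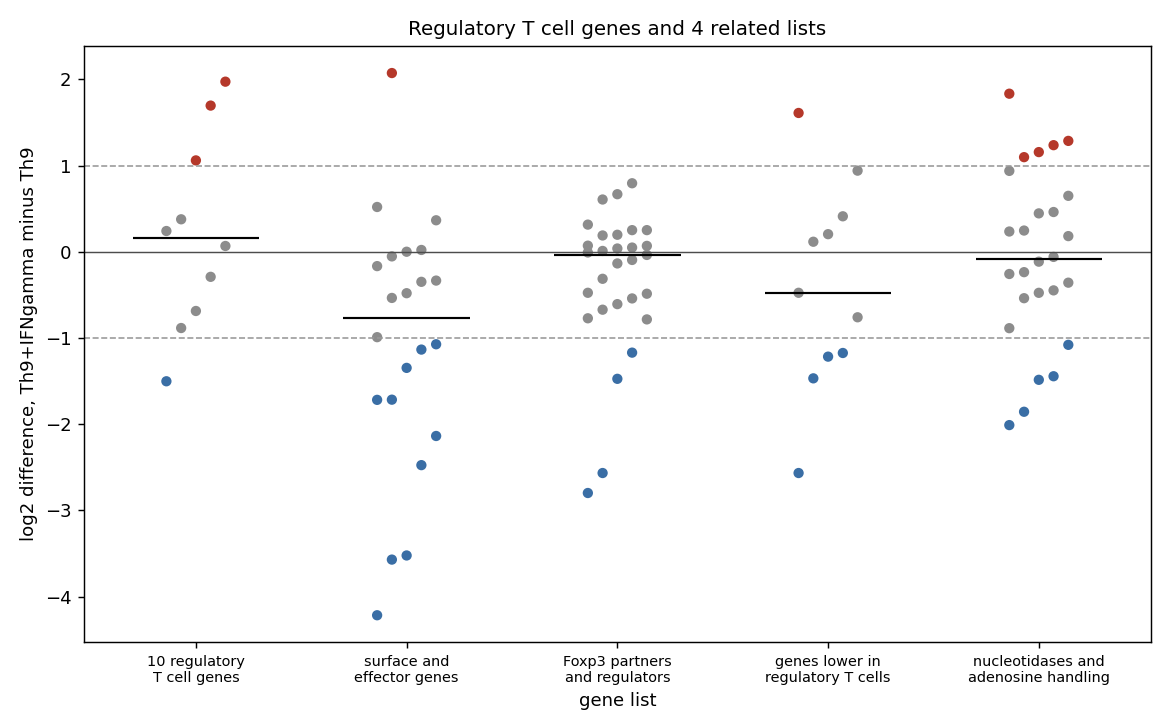
Log2 difference (Th9+IFNgamma minus Th9) of the 10 regulatory T cell genes and of the measured genes of 4 related lists without those 10, each point a gene, black bars the medians, dashed lines at 2-fold. The 10 genes have a median of 0.15, and the surface and effector genes, with a median of -0.76, hold 10 genes below the lower line and 1 above the upper.

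The arrays were also read for the cells they should hold. All 11 CD4 T cell markers were well above background on both arrays. Of them Cd247 was 2-fold apart by its brightest probe (1.09), whose other probes gave as little as 0.19. Entpd1, Nrp1, Capg and Swap70 are also expressed by B cells or myeloid cells, so markers of 6 other cell groups were summed. Of 33 such markers with a named probe, 18 were well above background in Th9+IFNgamma and 20 in Th9, and 13 on neither array. Pax5, Lyz2, Itgam, Itgax, Siglech and Ncr1 were among the 13. Detected markers that stood lower in Th9+IFNgamma by 2-fold or more, besides Batf3, were the macrophage marker Adgre1 (25.8 against 186), the B cell marker Blnk (65.0 against 203) and the NK cell marker Klra8 (15.6 against 71.4). Cd22, a B cell marker, cleared background in Th9 only (8.41 against 148, at least 13.3-fold lower), and Cd79b, of the B cell receptor, was at 844 in Th9+IFNgamma and 1187 in Th9. Higher in Th9+IFNgamma by 2-fold or more were the mast cell and basophil marker Fcer1a (59.2 against 26.7) and the globin gene Hba-a1 (119.6 against 53.4). The summed signal of all 33 markers was 4861 in Th9+IFNgamma and 30985 in Th9. Without Batf3, which activated T cells also express (3267 against 28569), it was 1594 and 2416, with Cd79b as the largest part. These sums add different probes, undetected ones included, so that bright probes weigh most. Cd8a, a CD8 T cell marker, was at 1338 in Th9+IFNgamma and 1074 in Th9. The part of other cells in the differences above was not tested.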

How the data were processed

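RNA of the 2 cultures, 500 ng each, was labelled with Cy3 and hybridised to 2 single-colour arrays of 1 slide, read in 1 scan. Per the file headers, the authors' scanner intensity values come from Agilent Feature Extraction 10.7.3.1 (10.7 in the submitters' processing notes), background-subtracted and detrended within an array and not scaled between arrays. The authors' deposited table holds log2 values, which matched log2 of the median processed signal less an array constant (column medians -4.05 in Th9+IFNgamma and -3.93 in Th9).

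Control spots and spots flagged as outliers (99 in Th9+IFNgamma, 71 in Th9) were left out, which removed 3 of 41174 probes, and no spot was saturated. A probe's log2 signals were averaged, and the 75th percentiles (631.9 in Th9+IFNgamma, 567.0 in Th9) were brought to 598.6. Probes well above background made up 60.6% in Th9+IFNgamma and 59.9% in Th9. Unversioned RefSeq accessions named 27042 probes through a GRCm38.p6 table. The array headers name another build, so the only coordinates are those of the RefSeq promoter table.

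With 1 array per condition no test was run, and the number of arrays limits the precision. For 138 probes printed 10 times, the SD of the log2 difference between single spots was 0.12 (0.23 for signals below 64). The steps were tested on simulated data. One marker of other cell types and 1 promoter motif are not reported here. The 10 genes and 11 gene lists were chosen with earlier results of these data known. Every one of the 10 is named, and from each list the genes at least 2-fold apart, up to 4 per direction by size, or all where a count was 5 or fewer. Adk, Adora2a, Runx1, Cbfb, Nfatc1, Def6 and Irf4, within 2-fold by their brightest probes, were named outside this rule. So were the surface and effector genes marked above as named after their values were seen. Alternatives were median, detected-probe and quantile scaling, normexp with an offset of 50 (limma 3.58.1), the deposited table, 2 other probe rules and 2 other filters. Normexp used median spot signals, chosen after seeing the data, in place of mean signals. Python 3.11.15 was used.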

Additional observations from a re-analysis of the deposited data

How the results depend on the processing

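The counts of 3 genes at least 2-fold higher and of 1 lower by that size among the 10 stood under all 9 alternatives, with Foxp3 between 1.02 and 1.18. Foxp3, with 1 probe, could not be moved by the 2 other probe rules or the 2 other filters. Of 89 values of the 10 genes under alternatives, 86 moved by less than the software's error, and none of the 4 genes past 2-fold changed sign. The 3 that moved by more were Ikzf2 (1.52 with normexp), Nrp1 (0.01 with normexp) and Entpd1 (1.92 as the mean of its probes). Many of the 89 could not move by that much, so the count of 86 is a weak check. The 2 other filters left every value they gave unchanged, and the 2 probe rules cannot move a gene with 1 measured probe. Median scaling, detected-probe scaling and the deposited table shift all genes by a constant smaller than that error. The Entpd1 difference less that of Nt5e was 2.84 with normexp. Over all genes, the counts past 2-fold were 1205 higher and 1788 lower without a filter on dim probes, where 18430 genes enter, against 632 and 910 in the reported setting. They were 437 and 582 with normexp, and 772 and 776 with median scaling. Median scaling raised every difference by the same amount, to a median over all genes of 0.11. Nrp1 has no value under the filter of 100, which its signal does not reach. No paired analysis was possible because each condition has 1 array and no test was run. Signal over background limits the dim probes, whose differences normexp with its offset makes smaller.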

Other observations

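Receptors sense the extracellular nucleotides on which Entpd1 acts. Over all measured genes, 7.42% were lower in Th9+IFNgamma by 2-fold or more and 5.15% higher by as much. Of 8 measured purinergic receptor and channel genes, 3 were lower by 2-fold or more, 1 was higher by as much and 4 lay within 2-fold. Their median of -0.76 was -0.28 without the filter on dim probes. P2rx7, an ATP-gated channel whose opening can kill mouse regulatory T cells, was at 1215 in Th9+IFNgamma and 4250 in Th9 (3.50-fold lower), and P2rx4 was at 200.5 and 502 (2.50-fold lower). P2ry2 was dim at 21.2 and 79.3, and its difference of -1.90 was -0.86 with normexp. P2ry1, an ADP receptor, was at 317 in Th9+IFNgamma and 120 in Th9 (1.40, and 0.99 with normexp). P2ry14, a receptor for UDP-sugars, cleared background in Th9+IFNgamma and not in Th9, with a bound of at least 5.75-fold (72.0 against 11.7).

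Among 16 measured genes of the semaphorin, plexin and VEGF system besides Nrp1, 3 were past 2-fold upwards in Th9+IFNgamma and 3 downwards. The shares of all measured genes were 5.15% upwards and 7.42% downwards. Sema7a, a membrane-anchored semaphorin of activated T cells, was at 25631 in Th9+IFNgamma and 5044 in Th9 (5.08-fold higher). Sema4a, which can bind neuropilin 1 on mouse regulatory T cells, was at 7001 and 3266 (2.14-fold higher). Sema6d was at 128 and 57.5 (1.15, and 0.61 with normexp). Besides Nrp2, the lower genes were the plexin gene Plxnb2 (43.9 against 321) and Sema4f (937 against 3335). Plxna3 and Plxnb1 cleared background in Th9 and not in Th9+IFNgamma, with bounds of at least 3.93-fold and 2.64-fold.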
